A study of Mus musculus with 5 samples.

Results

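Contactins, the L1 family and the neural cell adhesion molecule are cell surface proteins of the immunoglobulin superfamily that neurons use to hold to and grow along each other. The genes described here are Cntn1, Cntn2, Cntn3, Cntn4 and Cntn6 of the contactins, L1cam, Chl1, Nrcam and Nfasc of the L1 family, and Ncam1. Every non-control probe set whose platform annotation gave 1 of these 10 symbols and no other was taken, which gave 32 of 45037 probe sets, for 10 of the 18193 genes with such an annotation. Of these, 11 passed the brightness filter described below and were tested, and 21 did not. The genes were chosen by earlier results of these same arrays, that is, by signals of the 5 lines that had already been seen, and which of those values decided is not recorded in the sources used here. All values are therefore descriptions, and the adjusted p-values from the fit across the array lend the choice no support.

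The series profiled 5 lines made from Neuro2A (mouse neuroblastoma cells), each on 1 Affymetrix 3' expression array, from 100 ng of total RNA. Its design text names the effect of KDM7, a histone demethylase encoded by Kdm7a, on gene expression as the question. The control group held 3 lines, namely parental Neuro2A without a vector, Neuro2A with an empty vector, and Neuro2A with a vector for knockdown of EGFP. The knockdown group held 2 stable lines, which carried vector 1 and vector 2 for KDM7 knockdown. All 5 share the Neuro2A background, and the labels do not say whether a line is 1 clone or a pool, nor whether the lines were cultured side by side. No line was measured again, so p-values measure only the spread between these arrays, differences between lines included, and the small number of arrays limits every value. Below, signals of the control lines are given in the order parental, empty vector, EGFP knockdown, and those of the knockdown lines as line 1, then line 2.

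Contactins are held in the outer layer of the cell membrane by a glycosylphosphatidylinositol anchor and reach the cell interior through partners. L1 family proteins instead cross the membrane and bind ankyrin, which ties them to the spectrin skeleton. NCAM binds itself on neighbouring cells and can carry polysialic acid, which loosens adhesion. Many sympathoadrenal tumours, the class to which neuroblastoma belongs, carry NCAM and L1 on their surface.

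Facts of the whole series were as follows. The 2% trimmed mean of the signal was 500.0 on every array. Kdm7a, the targeted gene, had signals by its brightest probe set (1435867_at) of 660, 648 and 872 in the control lines, and of 231 and 143 in the knockdown lines. Of 17 sympathoadrenal and neuronal markers on the array, 14 passed the brightness filter, while Th, Nefl and Nefm did not. Of glial markers 1 of 6 passed (Mbp), and of blood markers 0 of 6. Of mesenchymal markers 4 of 9 passed, with a summed signal of 5179 in the parental line against 123 to 286 in the other 4 lines. Acta2 (2733) and Myl9 (2327) made up nearly all of the parental sum, and Col1a2 (46.0) and Pdgfra (73.5) were not highest there. Col1a1, Col3a1, Tagln, Pdgfrb and Thy1 did not pass.

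The 10 genes differed in whether they gave a signal that could be followed. Probe sets were tested when their mean log2 signal over the 5 arrays was at or above the array's median, which is a signal of 40.5. Ncam1 passed with 5 of 7 probe sets, Cntn2 with 2 of 4, Cntn3 with 2 of 2, L1cam with 1 of 2 and Nrcam with 1 of 4. Cntn1, Cntn4, Cntn6, Chl1 and Nfasc passed with none. A probe set under the filter was not shown to be above background, which does not show that its gene is silent. Signals of different probe sets depend on their probes, so they are compared between lines and not between genes.

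**Figure D1:**
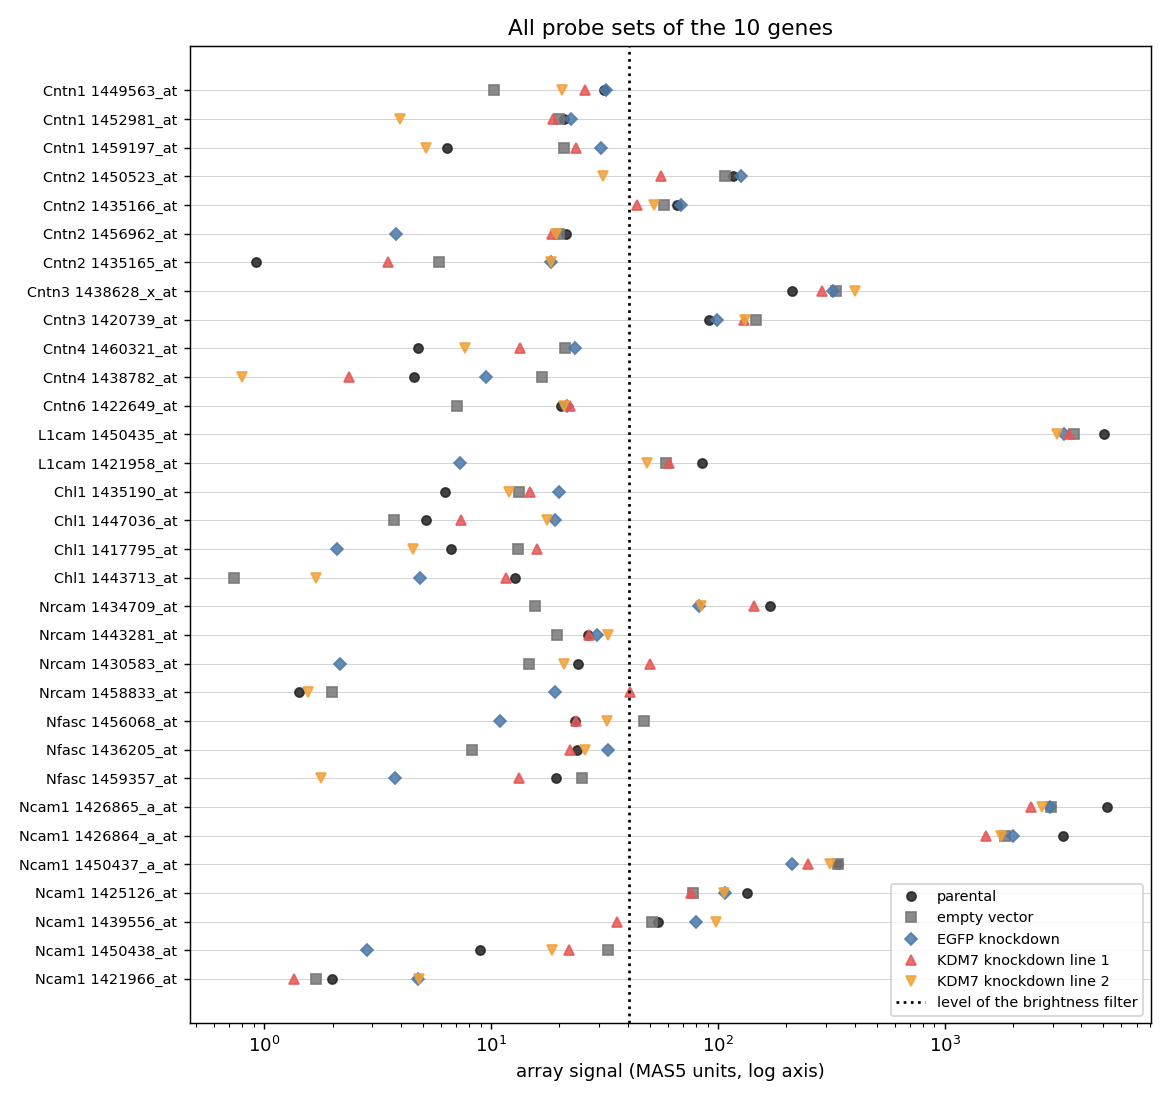
Signal of all 32 probe sets of the 10 genes (array signal, log axis) in each of the 5 lines, 1 point a line, with the level of the brightness filter, 40.5, as a dotted line. The 21 probe sets that did not pass lie mostly left of the line and spread widely between lines, with a median range of 2.51 on the log2 scale against 0.92 for the 11 that passed.

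Cntn2 encodes contactin 2, also called TAG-1, which is carried by growing axons and later binds Caspr2 beside the nodes of Ranvier. Its probe set 1450523_at had signals of 117 in the parental line, 108 in the empty vector line, 126 in the EGFP knockdown line, 56.1 in KDM7 knockdown line 1 and 31.1 in KDM7 knockdown line 2. The knockdown lines were both lower than any control line, and the 3 control lines lay close together. The group means were 117 ± 9.06 (SD, n = 3) and 43.6 ± 17.7 (SD, n = 2), which is 2.79-fold lower in the knockdown lines by mean log2 values. The log2 change was -1.48 (SE 0.35, 95% interval -2.28 to -0.68), the largest in size among the 11 probe sets. It did not pass after Benjamini-Hochberg adjustment over all 22519 probe sets tested (adjusted p = 0.916 in limma, 0.528 to 1 over the alternatives). The signal in knockdown line 2 was under 40.5, so the size of the difference there is uncertain. In RNA from a whole culture, fewer cells with a transcript and less of it per cell cannot be told apart.

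A second probe set of Cntn2, 1435166_at, had signals of 66.2, 57.6 and 68.8 in the control lines and of 43.9 and 52.1 in the knockdown lines. The groups again did not overlap, but the order of the knockdown lines was the opposite of that in 1450523_at. Its log2 change was smaller at -0.42 (SE 0.34, adjusted p = 0.920 in limma), and -0.27 after 32 was added to each signal. The remaining probe sets of Cntn2 were dim, with signals from 0.918 to 21.3, and in both of them the groups overlapped.

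The promoter of Cntn2 is shown because this gene had the largest log2 change among the 11 tested probe sets, and those of L1cam and Nrcam follow because they are the L1 family members with a tested probe set. Each runs from 250 bases before to 50 bases after the gene's start, from RefSeq on build GRCm38.p6, 5' to 3' on the gene's strand. Capitals mark GC boxes (GGGCGG, or CCGCCC on the other strand), a motif that SP-type transcription factors can bind and that holds a CpG itself. A GC box was present in 35.7% of all 32851 promoters of this length. The table held promoters for 9 of the 10 genes, and Ncam1 is named only.
Cntn2, chr1:132542891-132543190, minus strand: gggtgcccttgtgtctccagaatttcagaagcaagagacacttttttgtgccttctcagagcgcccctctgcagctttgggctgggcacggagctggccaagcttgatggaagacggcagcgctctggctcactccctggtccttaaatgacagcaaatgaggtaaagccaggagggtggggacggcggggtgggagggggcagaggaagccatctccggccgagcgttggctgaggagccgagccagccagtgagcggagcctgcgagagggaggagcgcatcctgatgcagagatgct
L1cam, chrX:73880741-73881040, minus strand: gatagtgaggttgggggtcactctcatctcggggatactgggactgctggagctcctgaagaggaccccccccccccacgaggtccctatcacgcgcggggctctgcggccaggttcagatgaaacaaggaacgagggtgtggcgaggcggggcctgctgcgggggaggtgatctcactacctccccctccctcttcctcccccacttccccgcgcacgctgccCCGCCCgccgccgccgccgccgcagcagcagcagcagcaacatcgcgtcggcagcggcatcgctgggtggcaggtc
Nrcam, chr12:44328635-44328934, plus strand: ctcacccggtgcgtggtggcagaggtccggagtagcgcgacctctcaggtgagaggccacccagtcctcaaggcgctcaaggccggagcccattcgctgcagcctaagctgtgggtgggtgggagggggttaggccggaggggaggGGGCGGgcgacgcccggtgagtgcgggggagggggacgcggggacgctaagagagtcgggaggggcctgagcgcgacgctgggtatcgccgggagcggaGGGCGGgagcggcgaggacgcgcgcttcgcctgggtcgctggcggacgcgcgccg

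The Cntn2 promoter held 0 GC boxes and 13 CpG dinucleotides, a number that 37.9% of all promoters reached. The L1cam promoter, the first of 2 listed for the gene, held 1 GC box and 25 CpG dinucleotides, which 18.4% of promoters reached. The Nrcam promoter held 2 GC boxes and 37 CpG dinucleotides, which 5.58% reached. By contrast the Cntn3 promoter held 0 CpG dinucleotides and had a GC content of 27.7%. TATAAA, searched on both strands with no overlap with the GC box, was absent from the first listed promoter of each of the 9 genes and present in 13.6% of all promoters. No match says only that these letters are not in this window.

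Cntn3 encodes contactin 3, known in the rat as BIG-1, a brain protein that supports neurite outgrowth in culture there. Its probe set 1438628_x_at had signals of 212, 330 and 321 in the control lines and of 287 and 402 in the knockdown lines. The suffix marks a probe set with probes that can also match other transcripts. Its other probe set, 1420739_at, had 91.5, 147 and 99.0 in the control lines and 130 and 131 in the knockdown lines. The parental line was the lowest of the 5 lines in both probe sets, and the groups overlapped in both. The log2 changes were 0.26 (SE 0.26) and 0.25 (SE 0.29). Without the parental line they were 0.06 and 0.12. The first was 0.02 without knockdown line 2 and 0.51 without line 1, and the second was 0.46 without the empty vector line.

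The other contactins stayed under the filter in every line. Cntn1 encodes contactin 1, which joins Caspr at the paranodal junctions of myelinated axons and binds the receptor phosphatase PTPRZ, and its 3 probe sets had signals from 3.95 to 32.2. Cntn4, known for binding the amyloid precursor protein, had signals from 0.800 to 23.5 in 2 probe sets. Cntn6, also called NB-3, had 1 probe set with signals from 7.07 to 22.2. Both knockdown lines lay below all control lines in Cntn1 1452981_at and in Cntn4 1438782_at. These were 2 of the 21 member probe sets under the filter, and 0 of the 21 had both lines above. Of all tested probe sets, 10.2% lay below and 12.6% above. For Cntn1 1452981_at the signals were 20.9, 19.9 and 22.5 in the control lines, 18.7 in knockdown line 1 and 3.95 in line 2, so that only line 2 stood apart. For Cntn4 1438782_at they were 4.59, 16.8 and 9.45 in the control lines and 2.36 and 0.800 in the knockdown lines. Neither probe set was tested.

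L1cam encodes L1, the founding member of its family, which guides axons and holds them in bundles. Its probe set 1450435_at was bright in every line, with signals of 5043 in the parental line, 3715 in the empty vector line, 3347 in the EGFP knockdown line, 3537 in KDM7 knockdown line 1 and 3110 in KDM7 knockdown line 2. The parental line was the highest, 1.36 times the next line, and the other 4 lines lay close together with the groups interleaved. The group means were 4035 ± 892 (SD, n = 3) and 3324 ± 302 (SD, n = 2). The log2 change was -0.26 (SE 0.18, 95% interval -0.67 to 0.15), and leaving out the parental line gave -0.09, or leaving out knockdown line 2 gave -0.17. Its other probe set, 1421958_at, had 85.2, 59.2 and 7.29 in the control lines and 60.6 and 48.4 in the knockdown lines. Its mean level of 40.4 left it just under the filter.

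Nrcam encodes an L1 family protein of axon initial segments and nodes of Ranvier. Its 1 tested probe set, 1434709_at, had signals of 170 in the parental line, 15.6 in the empty vector line, 82.3 in the EGFP knockdown line, 145 in KDM7 knockdown line 1 and 84.0 in KDM7 knockdown line 2. The empty vector line stood below all others and under the filter level, and the knockdown lines lay inside the range of the control lines. The signal ranged 10.9-fold over the 5 lines, a range that 0.511% of all tested probe sets reached. The log2 change between the groups was 0.87 (SE 0.96, 95% interval -1.45 to 3.19). It was -0.10 without the empty vector line, 1.62 without the parental line, 0.48 without knockdown line 1 and 0.47 with an offset of 32. Of the dim probe sets of Nrcam, 1430583_at was highest in KDM7 knockdown line 1 and lowest in the EGFP knockdown line, at 2.15, so it did not follow the tested one. Another, 1443281_at, was also lowest in the empty vector line, at 19.6 against 26.9 to 32.9 in the other lines. The third, 1458833_at, was lowest in the parental line. The empty vector line was measured on 1 array.

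By the rule used to find like patterns, the 5 genes nearest to Nrcam 1434709_at among 19891 probe sets of other genes were Cramp1l, Cd151, Nsg1, Dclk1 and Tcf3. Likeness was the Euclidean distance between log2 signals centred on their mean over the 5 lines, and it ran from 0.812 to 1.03 for these genes against a median of 2.79. Nsg1, a neuronal endosomal protein, had 694, 45.5 and 501 in the control lines and 402 and 374 in the knockdown lines. Dclk1, a microtubule-binding kinase of growing neurons, had 1027, 136 and 588 in the control lines and 607 and 824 in the knockdown lines. In all 5 of these probe sets the empty vector line was the lowest and the parental line the highest. These patterns rest on 5 arrays and were ranked for their likeness, so they are a description. That the nearest genes lie under the median distance follows from the ranking itself.

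Chl1, the close homologue of L1, and Nfasc, which encodes neurofascin of initial segments and nodes, had no tested probe set. The 4 probe sets of Chl1 had signals from 0.733 to 20.0, and the 3 of Nfasc from 1.79 to 47.4. The groups overlapped in all 7.

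Ncam1 encodes the neural cell adhesion molecule, made in several splice forms with different membrane anchors. Its brightest probe set, 1426865_a_at, had signals of 5175 in the parental line, 2930 in the empty vector line, 2916 in the EGFP knockdown line, 2404 in KDM7 knockdown line 1 and 2693 in KDM7 knockdown line 2. The next, 1426864_a_at, had 3314, 1842 and 1998 in the control lines and 1520 and 1773 in the knockdown lines. The suffix of both marks probes that match several transcripts of 1 gene. In both, the parental line was the highest, at 1.77 and 1.66 times the next line, and the knockdown lines were both lower than any control line by a margin that was small beside the gap of the parental line.

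The group means of 1426865_a_at were 3674 ± 1300 (SD, n = 3) and 2548 ± 204 (SD, n = 2), with a log2 change of -0.47 (SE 0.25), which did not pass (limma adjusted p = 0.916). Those of 1426864_a_at were 2385 ± 809 (SD, n = 3) and 1647 ± 179 (SD, n = 2), a log2 change of -0.49 (SE 0.25). Without the parental line the changes were -0.20 and -0.22. Of the 4 mesenchymal markers tested, Acta2 and Myl9, proteins of the contractile apparatus, were also highest in the parental line, with signals of 2733 and 2327 there against 39.3 to 105 and 4.33 to 56.9 in the other 4 lines. The other 2, Col1a2 and Pdgfra, were highest in KDM7 knockdown line 1, with 46.0 and 73.5 in the parental line against 27.9 to 61.3 and 51.5 to 115 in the others. The part of Acta2 and Myl9 in the parental levels of Ncam1 and L1cam was not tested.

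The remaining probe sets of Ncam1 did not repeat this order. 1450437_a_at had 337, 339 and 213 in the control lines and 248 and 310 in the knockdown lines. 1425126_at had 134, 77.7 and 108 in the control lines and 75.9 and 106 in the knockdown lines, with the parental line highest. 1439556_at had 54.5, 51.4 and 79.8 in the control lines, 35.8 in knockdown line 1 and 98.3 in knockdown line 2. In 1439556_at the knockdown lines thus lay on opposite sides of all control lines, as in 4.73% of all tested probe sets. The log2 changes of the 3 probe sets were -0.06 (SE 0.26), -0.21 (SE 0.33) and -0.03 (SE 0.48), and all 3 turned sign when a line was left out. The other 2 probe sets of Ncam1 were dim, with signals from 1.35 to 32.9.

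**Figure D2:**
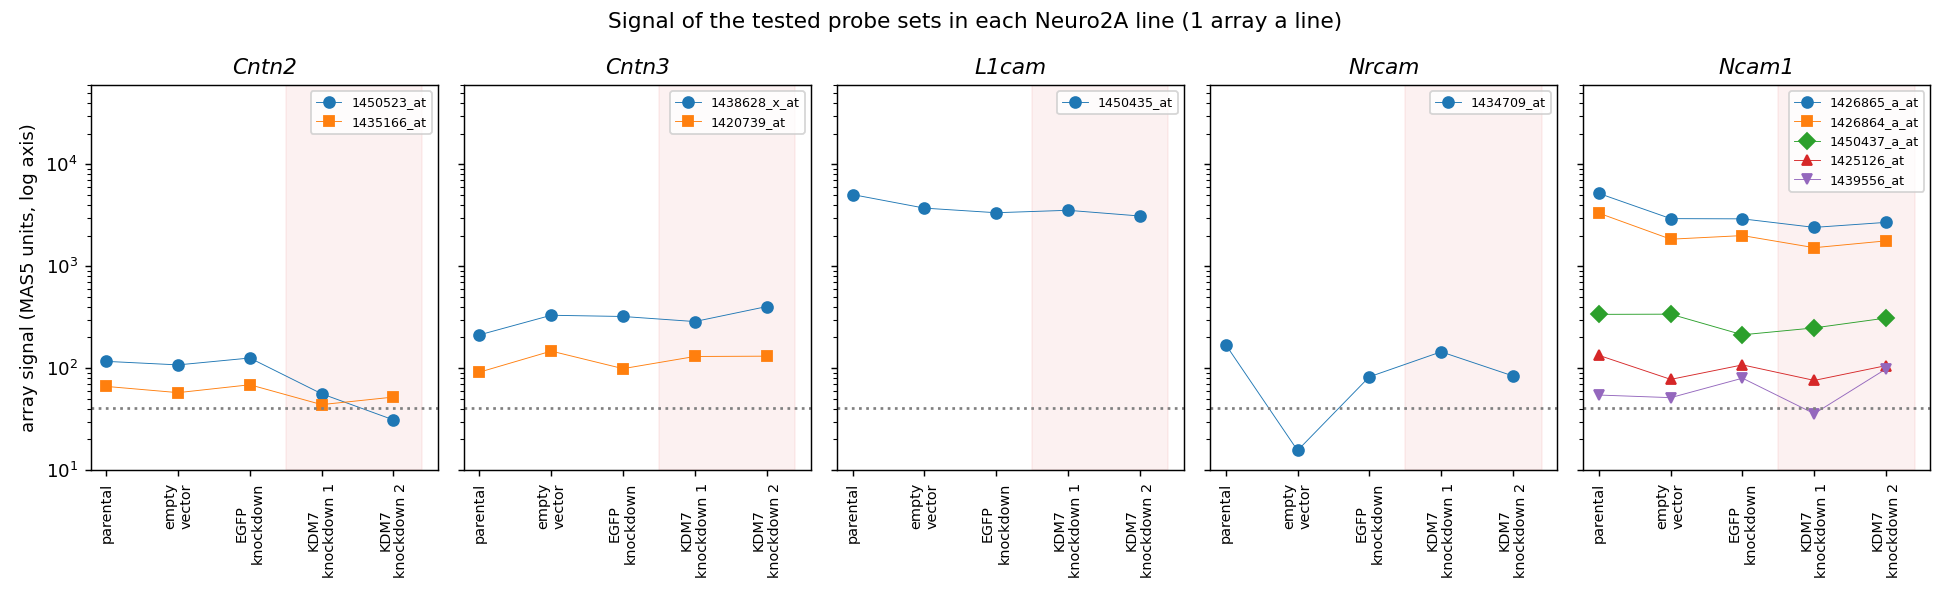
Signal (log axis) of the 11 tested probe sets in each line, 1 panel a gene and 1 point an array, with the 2 KDM7 knockdown lines shaded and the filter level of 40.5 dotted. Cntn2 1450523_at is lower in both knockdown lines, L1cam and the 2 brightest Ncam1 probe sets are highest in the parental line, and Nrcam is lowest in the empty vector line.

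Knockdown and control lines were then compared over all members. In limma 0 of the 11 tested probe sets passed an adjusted p of 0.05, against 0.00888% of all tested probe sets. Their adjusted p-values ran from 0.916 to 0.997. In another variance model, eBayes without trend and robust, 0 passed as well, against 0% of all. At an unadjusted p under 0.05 there was 1 (Cntn2 1450523_at) against 4.96% of all, and in the other variance model there were 2, both of Cntn2, against 5.56%. The log2 change was negative for 8 and positive for 3, with a median of -0.21 against 0.03 over all tested probe sets. Kdm7a 1435867_at, of the targeted gene, did not pass either (log2 change -1.99, limma adjusted p = 0.128). Not passing therefore does not show that a gene was unchanged.

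In 4 of the 11 the knockdown lines were both lower than any control line, namely both probe sets of Cntn2 and the 2 brightest of Ncam1, which is 36.4% against 10.2% of all tested probe sets. They were both higher than any control line in 0 of 11, against 12.6%. Counted in either direction they lay apart in 4 of 11 against 22.8% of all, and without knockdown line 1 in 7 of 11 against 45.4%. These 4 probe sets come from 2 genes, and probe sets of a gene share its transcripts, so the count does not stand for 4 separate genes. The 11 were also kept for their brightness and their genes were chosen with results known, and the share supports nothing further.

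**Figure D3:**
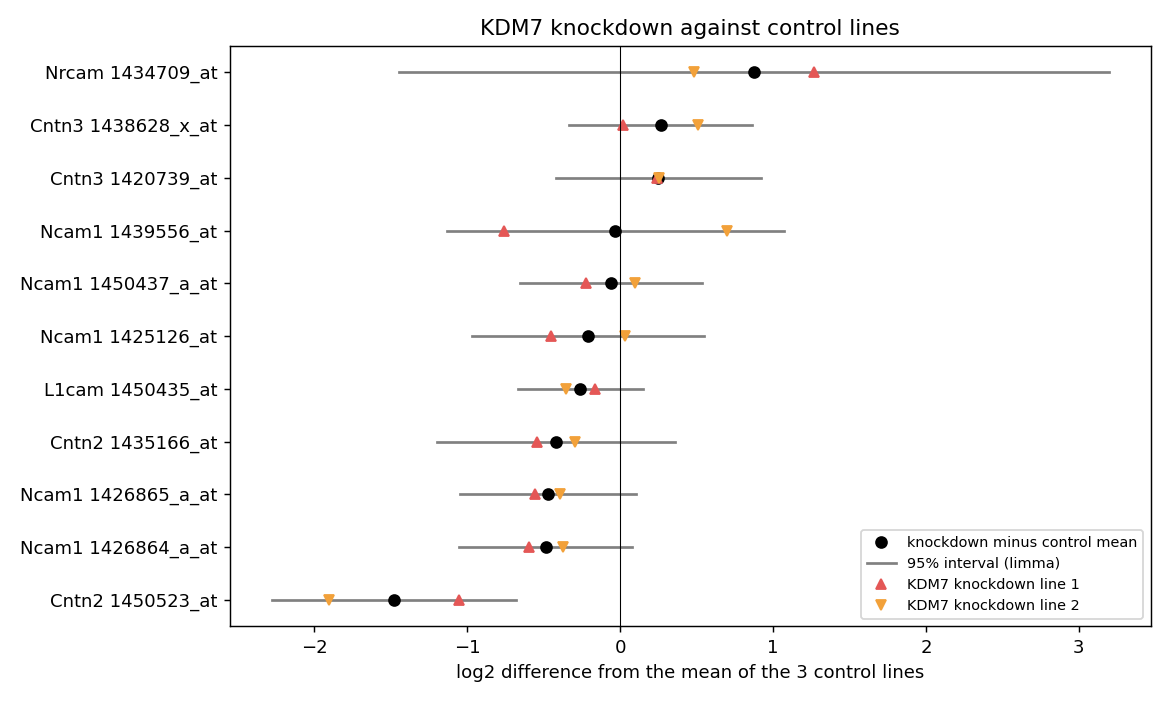
Log2 difference of the KDM7 knockdown lines from the mean of the 3 control lines for the 11 tested probe sets. Black points are the group difference with its 95% interval from limma, and triangles are the 2 lines. The interval of Cntn2 1450523_at, -2.28 to -0.68, is the 1 that does not reach 0, before any adjustment.

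The parental line was the highest of the 5 lines in 5 of the 11 probe sets (L1cam, Nrcam and 3 of Ncam1), against 23% of all tested probe sets, and the lowest in 2 (both of Cntn3), against 31.5%. It was at least 2-fold outside the other 4 lines in 0 of 11, against 2.15%. KDM7 knockdown line 2 differed at least 2-fold from line 1 in 1 of 11 (Ncam1 1439556_at, 2.75-fold higher in line 2), against 3.08% of all. The signal ranged at least 2-fold over the 5 lines in 5 of 11, against 21.2%. With 1 array a line, neighbouring lines in these orders cannot be told apart by a spread of their own. Comparisons of the parental line and of the groups share the parental array.

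A wider list held partners of these proteins, enzymes that process them and other neural adhesion molecules of the superfamily. It held 73 symbols, with the nectins listed under both an old and a new symbol. Of these symbols, 66 were on the array and 44 had a tested probe set. Of these 44, by the brightest tested probe set, 0 were called higher and 0 lower in limma, at a lowest adjusted p of 0.916, and 4 had an unadjusted p under 0.05, against 4.96% of all tested probe sets. The median log2 change was -0.02. Both knockdown lines lay above all control lines in 4 of the 44, against 12.6% of all, and below in 6, against 10.2%. The lowest log2 changes were those of Dcc, a netrin receptor, and Ank3, which encodes ankyrin-G, a partner of the L1 family. Ank3 had signals of 2207, 984 and 1933 in the control lines and 987 and 533 in the knockdown lines (log2 change -1.15, SE 0.40). The empty vector line was below knockdown line 1, so the groups overlapped. Dcc had 94.3, 70.2 and 66.7 in the control lines and 59.1 and 7.84 in the knockdown lines (log2 change -1.82, SE 0.77), so that line 2, under the filter level, carried most of it. The highest were those of Sptbn4, a spectrin of initial segments and nodes (0.67, SE 0.52), and Sdk2, a synaptic adhesion molecule (0.51, SE 0.24). Sptbn4 had signals of 145, 49.1 and 178 in the control lines and 152 and 193 in the knockdown lines. The empty vector line was far below the other lines there, and the groups overlapped. Sdk2 had 212, 179 and 151 in the control lines and 223 and 290 in the knockdown lines, without overlap.

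By role, the partners of contactins had a median log2 change of -0.0026 over 8 tested genes, and the partners and membrane skeleton of L1 and NCAM -0.00062 over 17. The other adhesion molecules had -0.05 over 16. Of the 5 enzymes for polysialic acid and shedding, the shedding proteases Adam10, Adam17 and Bace1 were tested, with a median of -0.36. Their log2 changes were -0.36, -0.04 and -0.41, so the median is the value of Adam10. For Adam10 and Bace1 the parental line was the highest, and both knockdown lines lay below all control lines, as in 10.2% of all tested probe sets. Adam10 had signals of 2966, 2410 and 2105 in the control lines and 1991 and 1856 in the knockdown lines. Bace1 had 439, 334 and 342 in the control lines and 262 and 295 in the knockdown lines. The parental line thus carried part of both changes. The polysialyltransferases St8sia2 and St8sia4, which put polysialic acid on NCAM, had no tested probe set. No gene of these groups passed the test.

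**Figure D4:**
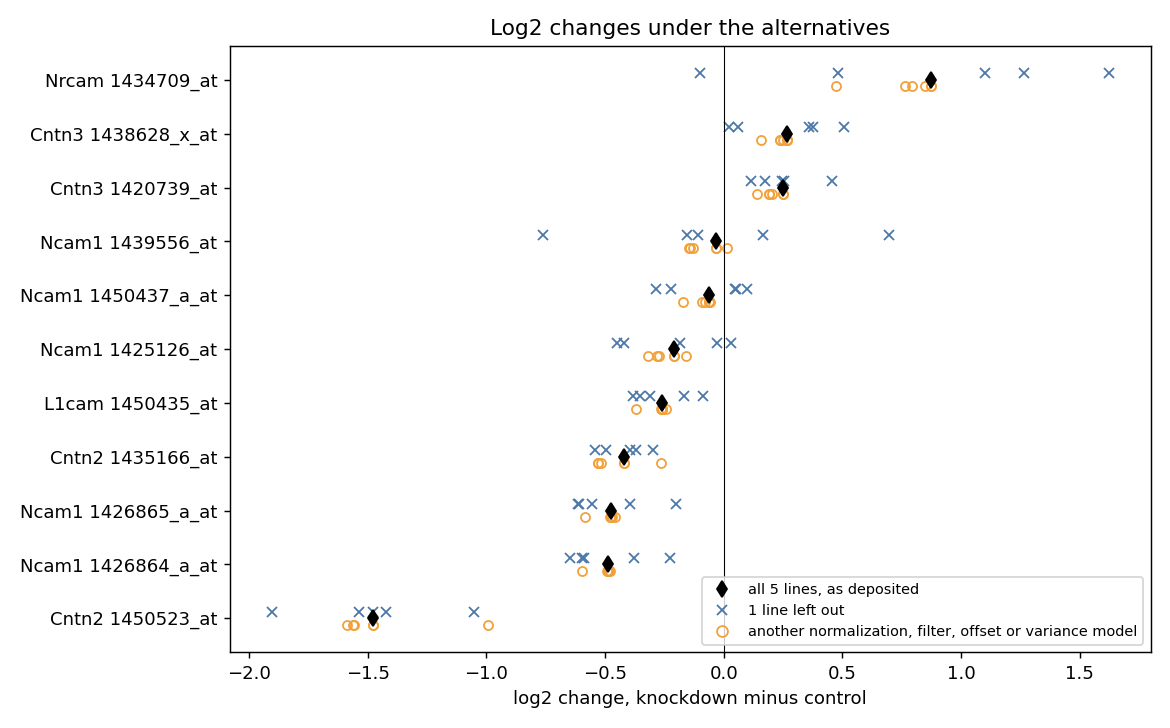
Log2 change (knockdown minus control) of the 11 tested probe sets under the alternatives, of which the filter at the 70th percentile kept 5: diamonds for all 5 lines as deposited, crosses with 1 line left out, circles for another normalization, filter, offset or variance model. Where it was tested, Cntn2 1450523_at had values from -1.90 to -0.99, while Nrcam moves from -0.10 to 1.62 depending on the line left out.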

How the data were processed

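Total RNA of 5 Neuro2A lines was labelled as biotin cRNA and hybridised to 1 array each, per the labels' protocols. The deposited values are linear signal intensities that the authors computed with MAS5, as the submitters' processing notes state (no version is named there). The equal 2% trimmed means show a common scaling. Of 45101 probe sets, 64 controls were left out. The log2 of each signal was used as deposited, without further normalization, and 22519 probe sets at or above the median mean log2 signal were kept. Symbols came from the platform annotation, and 0 of the 32 probe sets needed another symbol in the gene table. Promoters came from RefSeq, GRCm38.p6, and gene coordinates were not used.

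The fit was limma 3.58.1 in R 4.3.3 (lmFit, eBayes with trend and robust), 2 knockdown against 3 control lines, 3 residual degrees of freedom, with p-values adjusted (Benjamini-Hochberg) over the kept probe sets. Tested on simulated data with nothing changed, this fit made calls in more draws than eBayes without these options, so its p-values may be too small. The simulated data were drawn with this fit's own variances, and the arrays themselves need not vary that way. Leaving out a line that leaves 1 in its arm assumes that the lone line varies like the controls. Every member was named; where a gene had several tested probe sets, each is given. From the wider list the 2 largest changes each way were named. The members and lists were chosen with earlier results of these data known. Alternatives were 3 normalizations (cyclic loess, median centring, quantile), the filter dropped or raised to the 70th percentile, 32 added to each signal, a plain eBayes step (no trend, not robust), a threshold of 0.10, and each line left out in turn. Log values of dim MAS5 signals scatter widely, hence the filter and the added constant. Detection calls were not used here.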

Additional observations from a re-analysis of the deposited data

Results flagged for a closer look

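Ncam1 1439556_at had knockdown line 1 below all control lines (log2 difference from the control mean -0.76) and knockdown line 2 above all of them (0.70). It stands out because the lines moved in opposite directions against the same controls. The difference between the lines was not tested, since each was measured on 1 array. Such opposite placing occurred in 4.73% of all tested probe sets. This probe set passed the filter, but its signal in line 1, 35.8, was under the filter level.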

How the results depend on the processing

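Of 126 recomputed log2 changes of the 11 probe sets, 118 kept their direction and their side of the threshold and 8 turned sign, and 0 passed in any alternative. Another filter or variance model leaves a log2 change as it is, so under those alternatives the direction was fixed in advance. Ncam1 1439556_at turned to 0.014 with an offset of 32. When 1 line was left out, it ranged from -0.76 to 0.70, Ncam1 1450437_a_at from -0.28 to 0.10, Ncam1 1425126_at from -0.45 to 0.030 and Nrcam 1434709_at from -0.10 to 1.62. The count with both knockdown lines on one side of all controls was 4 of 11 (22.8% of all probe sets), 6 of 32 with no brightness filter (21.5%), 2 of 5 for a filter raised to the 70th percentile (22.6%), and 5 to 7 of 11 with a line left out (36.3% to 45.4%, since fewer lines are compared). With no brightness filter the parental line was at least 2-fold outside the others in 1 of 32, against 7.97% of all, and the knockdown lines were at least 2-fold apart in 12 of 32, against 26.7%. The latter count was 0 under the raised filter and 0 with the offset. Over the whole array limma called 2 probe sets, 1 after median centring, 0 after cyclic loess, 0 without trend and robust, 4 at an adjusted p under 0.10, and 0 to 4 with a line left out. Median centring moved the median log2 change of all tested probe sets from 0.03 to -0.08 and turned no member's sign. No paired analysis was possible because the lines carry different constructs or none, and the labels match no knockdown line to a control line. Signal over background limits the 21 dim probe sets, and 3 against 2 arrays limit the rest.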
